A study of Procambarus virginalis and Procambarus fallax with 9 samples.

Results

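Abdominal musculature was compared between the marbled crayfish, Procambarus virginalis, and Procambarus fallax. The comparison holds 6 of the 9 RNA-seq libraries of the series, chosen by the species and tissue in the sample titles: muscle of P. virginalis animals 2, 6 and 7, and muscle of P. fallax animals 1, 3 and 4. The P. virginalis animals belong to a single laboratory strain (Heidelberg) of an all-female clonal lineage, and the P. fallax animals were females bought through the aquarium trade. Each library is 1 animal, and the labels name neither a treatment nor an age for either species. Hepatopancreas libraries of the same 3 P. virginalis animals served as context only. The submitters' design text speaks of 6 individuals for P. virginalis but 2 for P. fallax, while the titles list 3 and 3, which were used here. Because every P. virginalis animal came from 1 strain and every P. fallax animal from the trade, species cannot be told apart from origin and rearing.

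The marbled crayfish reproduces by parthenogenesis, is triploid and descends from the sexually reproducing, diploid P. fallax, so that most of its genes have a close counterpart in the other species. The abdominal musculature of crayfish is the large fast muscle of the tail flip. Its RNA, as in other striated muscle, is dominated by a small number of transcripts for the contractile apparatus and its energy supply, whereas the hepatopancreas is the digestive gland, with a broad set of secretory and metabolic transcripts.

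Reads of both species were assigned to the same 21773 gene models, which were made for P. virginalis. Sequence divergence of P. fallax from these models can lower its counts, and this cannot be told apart from lower expression. Total expected counts, the fragments assigned to gene models, ranged from 6001494 to 18661368 in P. virginalis muscle and from 9109577 to 11942816 in P. fallax muscle. Paired-end reads were PE100, the shorter length, in P. virginalis animals 2 and 6 and PE125 in P. virginalis animal 7 and all P. fallax animals. The files do not pair the identifiers with gene names, so the labelled tissue could not be checked against defining muscle markers and the roles of single genes are not given. Levels are in TPM, a unit that corrects for gene length and sums to the same total in every library. In such bulk samples, fewer cells of a type and less RNA per cell cannot be told apart.

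The abundant end of the muscle profile was largely shared by the species. When genes were ranked by mean TPM, 94 of the 100 most abundant genes of P. virginalis were also among the 100 most abundant of P. fallax. Of the 10 most abundant genes of each species 8 were shared, of the 50 most abundant 42 (84%) and of the 500 most abundant 433 (86.6%). The 6 genes found only in the P. virginalis list ranked at worst 116th in P. fallax, and the 6 found only in the P. fallax list ranked at worst 182nd in P. virginalis. Single libraries shared between 84 and 93 of their 100 most abundant genes across the species and between 83 and 93 within a species. The overlap between species therefore lay in the same range as that between animals of 1 species. About the same number of these genes, 49 for P. virginalis and 48 for P. fallax, were also among the 100 most abundant of P. virginalis hepatopancreas, and are thus not particular to muscle.

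The 10 genes with the highest mean TPM over the 6 muscle libraries were all lower in hepatopancreas than in any muscle library. They had at most 882 TPM there for the most abundant gene and at most 70.8 TPM for the other 9. The most abundant gene had 189178, 381961 and 248492 TPM in P. virginalis animals 2, 6 and 7, against 212223, 57634 and 50830 TPM in P. fallax animals 1, 3 and 4. It was high in all P. virginalis animals and in P. fallax animal 1, and lower in the other two. The second had 149234, 112663 and 131720 TPM in P. virginalis, against 132769, 92598 and 140672 TPM in P. fallax, with full overlap of the groups. The tenth had 1144, 22765 and 20858 TPM in P. virginalis and 26241, 2093 and 137 TPM in P. fallax, so that it was high in 2 P. virginalis animals and in 1 P. fallax animal, and varied more between animals of a species than between species. For each of these 10 genes the values of the species overlapped, and the smallest adjusted p among them was 0.652 (edgeR quasi-likelihood test with Benjamini-Hochberg adjustment).

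Together, the 10 most abundant genes of a library took 73.3%, 68.8% and 65.2% of the TPM in P. virginalis animals 2, 6 and 7, against 64.2%, 63.2% and 56.8% in P. fallax animals 1, 3 and 4. The share averaged 69.1% ± 4.02 in P. virginalis and 61.4% ± 4.01 in P. fallax (SD, n = 3 each), a difference of 7.72 percentage points (two-sided exact permutation test, p = 0.1, the smallest p that 3 against 3 libraries allow). The groups did not overlap for this share. The 100 most abundant genes held 92.2% ± 2.72 in P. virginalis muscle and 88.6% ± 3.67 in P. fallax muscle (exact permutation p = 0.3). Genes with at least 1 TPM numbered 4282, 3196 and 5531 in P. virginalis and 4706, 4552 and 5875 in P. fallax (exact permutation p = 0.4), with overlap between the species. Since TPM sums to a constant, the larger share of the top genes in P. virginalis moves together with lower TPM of the remaining genes, which bears on every comparison in TPM below.

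**Figure D1:**
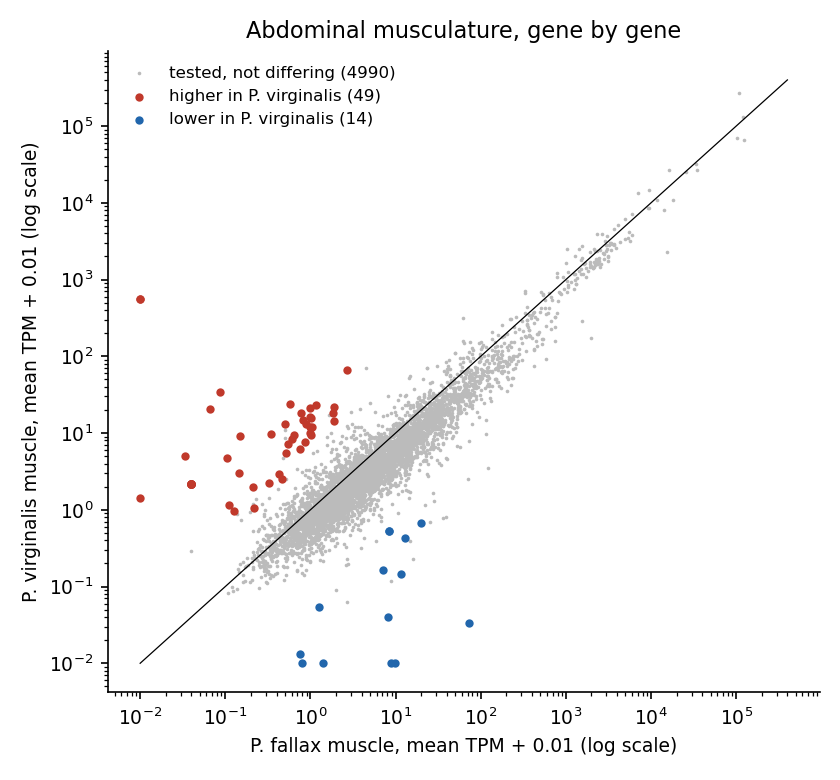
Mean TPM of each tested gene in P. virginalis muscle (vertical) against P. fallax muscle (horizontal), both on a log scale after adding 0.01, with the line of equal level. The 49 genes that were higher and the 14 that were lower in P. virginalis are coloured and lie away from the line at low to middle levels, and no coloured point lies above 1000 TPM.

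Across genes, the mean profiles of the species were closely related. Over 5067 genes that averaged 1 TPM or more in the 6 muscle libraries, Spearman's rho between the species means was 0.812 and Pearson's r of log2(TPM + 1) was 0.917. Over the 1441 genes with at least 10 TPM the values were 0.792 and 0.907, and over the 103 genes with at least 1000 TPM they were 0.850 and 0.920. These correlations run across genes, which are not independent replicates and share libraries and gene lengths, and they describe the profiles without a test.

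Likeness between single animals was set against this. For genes with at least 1 TPM, rho averaged 0.720 over the 9 pairs of a P. virginalis and a P. fallax library (0.592 to 0.796) and 0.768 over the 6 pairs within a species (0.672 to 0.810). The difference was -0.0480 (two-sided exact permutation test over the 10 divisions of the 6 libraries, p = 0.2, where 0.1 is the smallest possible). For genes with at least 10 TPM, rho averaged 0.686 between species (0.551 to 0.816) and 0.707 within species (0.576 to 0.798). For genes with at least 1000 TPM, the mean between species, 0.660, was above that within species, 0.627.

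Single pairs show how far the animals of a species differed. The highest rho of all pairs at 10 TPM or more, 0.816, was that of P. virginalis animal 7 with P. fallax animal 1. Among P. fallax animals, 1 and 3 had a rho of 0.576, and 1 and 4 of 0.639, both below the 0.732 to 0.798 found among P. virginalis animals. The lowest pairs, 0.551 and 0.573, were P. fallax animal 3 with P. virginalis animals 7 and 6. P. fallax animal 3 thus took part in the 3 lowest pairs, while its rho with P. fallax animal 4 was 0.754 and with P. virginalis animal 2 was 0.688.

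**Figure D2:**
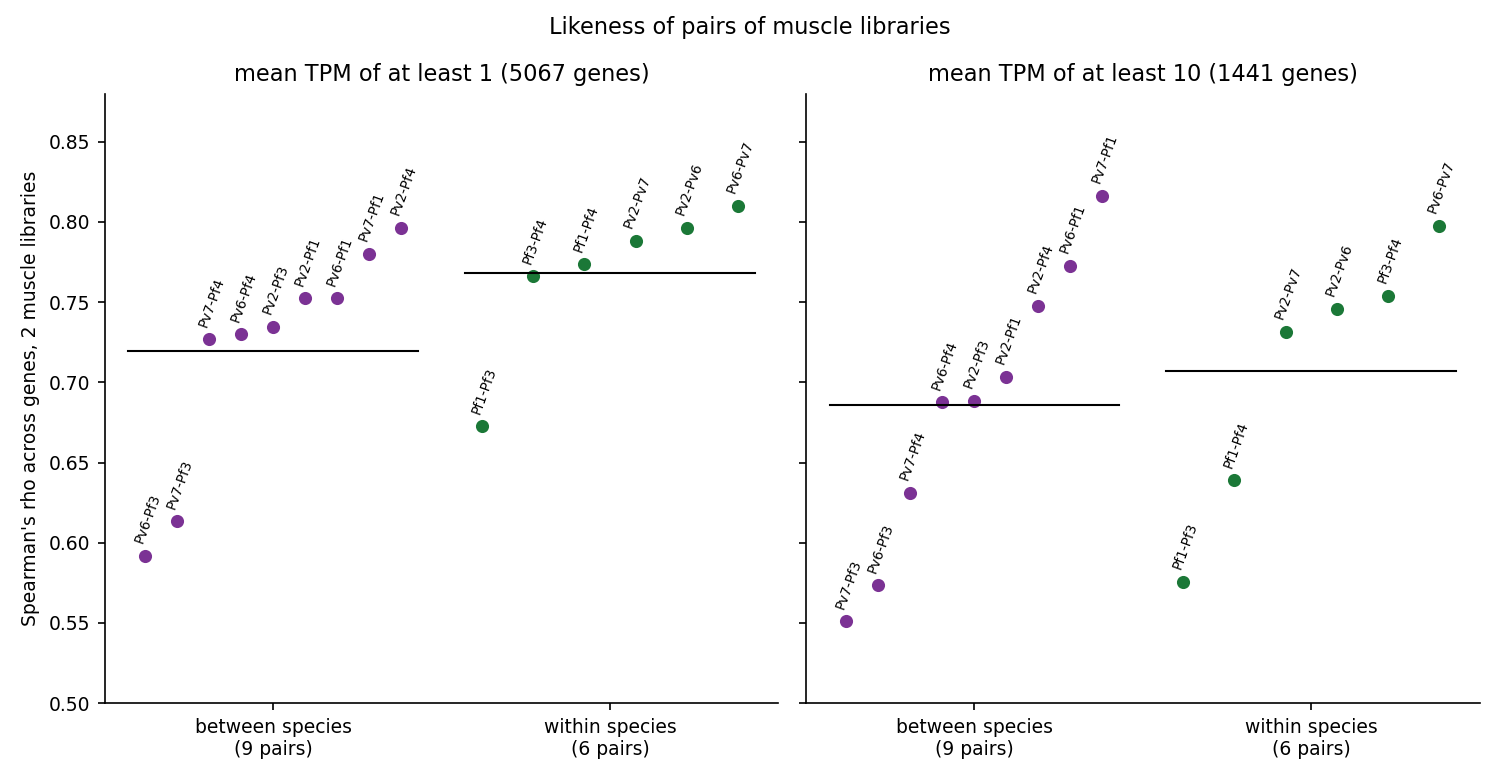
Spearman's rho across genes for each pair of muscle libraries, between species (purple, 9 pairs) and within species (green, 6 pairs), for genes averaging 1 TPM or more (left) and 10 TPM or more (right). Labels give the 2 animals (Pv, P. virginalis, and Pf, P. fallax) and lines the means, which are 0.720 between and 0.768 within species on the left and 0.686 and 0.707 on the right, with broad overlap of the points.

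The size of the differences between libraries was then compared at each level. The median absolute difference of log2(TPM + 1) between 2 libraries, over genes with at least 1 TPM, averaged 0.866 between species (0.554 to 1.65) and 0.838 within species (0.624 to 1.10), a ratio of 1.03 (two-sided exact permutation test, p = 0.8). By class of mean TPM, the ratio was 1.00 from 0.1 to 1 TPM, 1.01 from 1 to 10 TPM, 1.04 from 10 to 100 TPM, 1.24 from 100 to 1000 TPM and 1.09 from 1000 TPM. In the class with the largest ratio, library pairs differed by 1.14 between species (0.552 to 1.94) and by 0.917 within species (0.768 to 1.31). The ranges overlapped in every class, and the classes were not tested one by one.

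Likeness of single genes was bounded less well than these averages. With limma voom, the 95% interval of the log2 difference between species had a median half-width of 1.36, and the whole interval lay within a 2-fold difference for 4 of 5053 genes (0.0792%). It lay within a 4-fold difference for 2942 genes (58.2%), with 380 of 807 (47.1%) from 0.1 to 1 TPM, 1692 of 2833 (59.7%) from 1 to 10 TPM, 717 of 1121 (64.0%) from 10 to 100 TPM, 100 of 187 (53.5%) from 100 to 1000 TPM and 51 of 103 (49.5%) from 1000 TPM. For nearly all genes the interval thus reached beyond a 2-fold difference. The share bounded within 4-fold was largest at middle levels and did not grow towards the most abundant genes.

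Against this spread, 63 of 5053 genes (1.25%) differed between the species by edgeR's quasi-likelihood test at an adjusted p under 0.05, 49 higher (0.970%) and 14 lower (0.277%) in P. virginalis. An unadjusted p under 0.05 was found for 379 genes (7.50%), and DESeq2 called 111 genes (2.20%), among them 62 of the 63. The fold changes were large, at a biological coefficient of variation of 0.560. The median log2 fold change, P. virginalis over P. fallax, was 4.86 for the higher genes (3.00 to 12.23) and -5.87 for the lower genes (-3.64 to -9.33), or -4.19 when genes without a count in P. virginalis were set to their lower bound, beside a median absolute value of 0.47 over all genes tested. A further 37 genes had a fold change of at least 3 on the log2 scale, up to 5.58, without passing the test. There was no overlap in TPM between the species for 48 of the 49 higher and all 14 lower genes, against 539 of all genes tested (10.7%).

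The excess of higher genes depended on the scaling and on the filter on low counts. Of the 539 genes without overlap in TPM, 83 (1.64%) were higher and 456 (9.02%) lower in P. virginalis, while in CPM, counts relative to the library total, scaled with TMM factors, which set the bulk of genes level between libraries, 291 (5.76%) were higher and 316 (6.25%) lower of 607 genes (12.0%). Among genes that passed a test, 77.8% were higher with TMM factors. With library sizes alone 72 genes passed, 37 higher and 35 lower (51.4% higher), 47 of them among the 63, and the median log2 fold change of all genes moved from -0.01 to -0.59. With limma on log2(TPM + 1) the split was 28 higher and 29 lower (49.1% higher), 32 of them among the 63. Each of the 63 genes kept its sign in every alternative fit that held it. With TMM factors but without the filter on low counts, 155 genes were higher and 152 lower (50.5% higher). The split between the directions is thus relative to the scaling and to the filter. That the 63 genes kept their signs shows little, since all had an absolute log2 fold change of at least 3.00 and the fits share libraries.

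Most genes that differed had a low level, as did most genes tested. Of 807 genes tested with a mean TPM from 0.1 to 1, 8 differed (0.991%), 4 higher and 4 lower in P. virginalis. From 1 to 10 TPM 44 of 2833 differed (1.55%), 36 higher and 8 lower. From 10 to 100 TPM 9 of 1121 differed (0.803%), 7 higher and 2 lower, and from 100 to 1000 TPM 2 of 187 (1.07%), both higher. These shares stand beside 1.25% over all levels, so that no class stood far from the background, and a difference between classes was not tested. The order of the classes depended on the scaling. With library sizes alone the shares from the lowest to the highest class were 0.620%, 1.48%, 1.69%, 1.6% and 2.91%, beside 1.42% of all genes, and with limma on log2(TPM + 1) they were 0.993%, 1.22%, 1.58% and 3.88% from 1 TPM upwards, beside 1.12%. The highest class thus had the lowest share with TMM factors and the highest share in these fits. Only 11 of the genes that differed had a mean of at least 10 TPM.

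Among the 103 genes with at least 1000 TPM, which held 92.1% of the TPM in P. virginalis and 88.1% in P. fallax, no gene passed the test, and 4 had an unadjusted p under 0.05. The smallest adjusted p was 0.0933. The count was also 0 with limma voom and with each animal left out in turn in edgeR, 1 with DESeq2, 3 with library sizes alone and 4 with limma on log2(TPM + 1). With TMM factors, 92 of these 103 genes had a positive fold change (median 0.55 on the log2 scale), whereas with library sizes alone 28 had one (median -0.27), so that their common direction flipped with the scaling. It flipped as well, to a median of -0.17, when P. virginalis animal 6 was left out. The share of genes with an absolute log2 fold change over 1 was nearly the same in all classes from 0.1 TPM, between 16.2% from 10 to 100 TPM and 17.9% from 1 to 10 TPM.

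**Figure D3:**
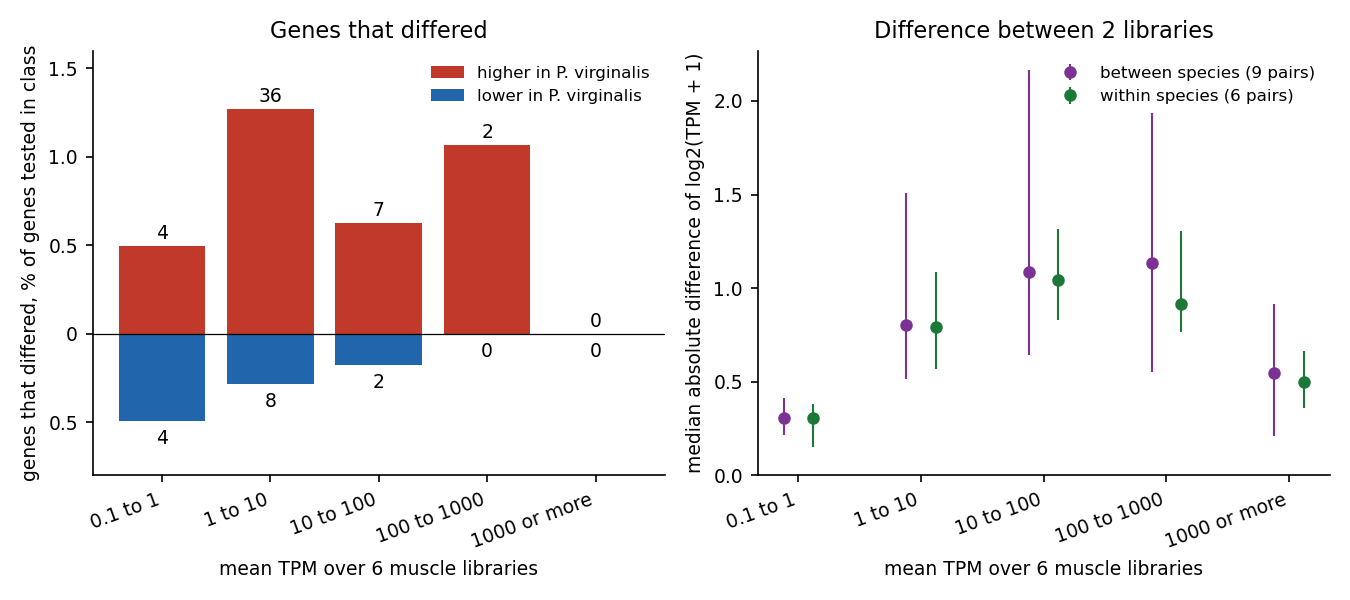
Left, percentage of the genes tested in each class of mean muscle TPM that differed at an adjusted p under 0.05, higher in P. virginalis above the line and lower below it, with the number of genes at each bar. Right, median absolute difference of log2(TPM + 1) between 2 libraries by the same classes, as mean (point) and range (line) over 9 pairs between species and 6 pairs within species. No gene from 1000 TPM differed, and the ranges between and within species overlapped at every level.

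The largest difference among genes with at least 10 TPM in 1 of the species was that of maker-scaffold33921-exonerate_protein2genome-gene-0.22 and maker-scaffold33921-exonerate_protein2genome-gene-0.27, models of 213 nt on 1 scaffold with the same counts in every library. Each had 193, 909 and 575 TPM in P. virginalis animals 2, 6 and 7, from 123.74, 1018.08 and 171.32 expected counts, and no count in any P. fallax animal. All P. virginalis libraries held it and no P. fallax library did, a level at least 722-fold higher when P. fallax is given a floor of 3 counts over its libraries (adjusted p = 0.00418, edgeR). Leaving out P. virginalis animal 6 lowered this bound to 238 and leaving out P. fallax animal 4 lowered it to 337. Such floors and intervals rest on counts pooled over the animals of a species and cover counting error alone, not the spread between animals. Even that error may be understated, because reads that carry no molecular identifier may stem from the same molecule. In hepatopancreas of P. virginalis animals 2, 6 and 7 each model had 5.66, 46.4 and 41.7 TPM. The RNA was thus found in both P. virginalis tissues, more in muscle.

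The most abundant higher gene without such a copy, a model of 958 nt, had 50.7, 77.4 and 71.7 TPM in P. virginalis and 1.49, 4.19 and 2.39 TPM in P. fallax. Its log2 fold change was 5.40 ± 0.82 (SE, adjusted p = 0.00631, edgeR), and its hepatopancreas level, 378, 384 and 449 TPM, was above that of either muscle. A model of 753 nt had 47.9, 17.7 and 36.0 TPM in P. virginalis and 0.23, 0 and 0 TPM in P. fallax. Its pooled ratio of 639 had a 95% counting interval from 176 to 5286. Another model, of 935 nt, had 20.9, 6.39 and 34.6 TPM in P. virginalis, against 0, 0 and 0.17 TPM in P. fallax, a ratio of 431 (119 to 3570). In these 3 genes every P. virginalis animal lay above every P. fallax animal, and the mean level in hepatopancreas was above that in P. virginalis muscle.

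Among genes with at least 10 TPM in 1 of the species, the largest decrease was in maker-scaffold66409-snap-gene-0.2, a model of 780 nt. It had 0, 0.07 and 0 TPM in P. virginalis, a single count in animal 6, and 21.7, 24.0 and 174 TPM in P. fallax, from 168, 176 and 1403 counts. P. fallax animal 4 was far above the other two, and no P. virginalis muscle library held more than that count. Counts were lower in P. virginalis by a pooled factor of 1059 (95% counting interval 190 to 41864), with a log2 fold change of -9.33 ± 1.14 (SE, adjusted p = 0.00242, edgeR). Without P. fallax animal 4 the factor was 446, and without P. virginalis animal 6, which held the only count, it was at least 240. In P. virginalis hepatopancreas the gene had 7.47, 3.08 and 7.38 TPM.

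The next within that limit, though not among all lower genes, was maker-scaffold141002-snap-gene-0.0 of 990 nt, with 0.08, 0.10 and 0.23 TPM in P. virginalis and 1.73, 23.1 and 9.92 TPM in P. fallax. Its log2 fold change of -5.87 ± 1.09 (SE, adjusted p = 0.0181, edgeR) kept its size without P. virginalis animal 2, 6 or 7 (-5.65, -6.30 and -5.74), but the adjusted p was then 0.0630, 0.0967 and 0.112. Without P. fallax animal 3 the log2 fold change was -4.36 (adjusted p = 0.0268). Its hepatopancreas level was 0.69, 0.94 and 0.76 TPM. A lower gene of 726 nt was higher in hepatopancreas than in muscle of either species. It had 0.89, 0.55 and 0.52 TPM in P. virginalis muscle and 13.4, 28.6 and 17.9 TPM in P. fallax muscle, a log2 fold change of -4.19 ± 0.70 (SE, adjusted p = 0.0110, edgeR), beside 167, 147 and 183 TPM in P. virginalis hepatopancreas.

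Several genes were without a single count in the muscle of 1 species. They were 3 of the 49 higher genes, at 0 in all P. fallax animals, and 4 of the 14 lower genes, at 0 in all P. virginalis animals. Besides the pair of models above, the third higher gene was a model of 2298 nt with 1.51, 0.76 and 2.01 TPM in P. virginalis, at least 62.1-fold higher. Of the 4 lower genes, a long model of 8505 nt had 0.88, 0.73 and 0.75 TPM in P. fallax, from 95, 75 and 84 counts, at least 51.3-fold lower in P. virginalis. It was close to 0 in P. virginalis hepatopancreas as well, at 0.01, 0 and 0 TPM. The others, of 1613, 381 and 312 nt, were at least 15.97-fold, 15.2-fold and 8.89-fold lower. The shortest of them had 9.44, 6.46 and 10.4 TPM in P. fallax muscle and 125.24, 104 and 81.2 TPM in P. virginalis hepatopancreas, so that its lack of counts in P. virginalis muscle did not extend to the gland.

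Most of these calls came from genes with few counts in 1 species. Of the 49 higher genes 36 reached the filter's level of 0.876 CPM in no P. fallax library, and of the 14 lower genes 12 reached it in no P. virginalis library. Such genes entered the test through the species in which they were high, so that a difference was part of their selection. Among all genes tested, 43 and 53 were of these 2 kinds. P. fallax held at most 3 counts in all for 15 of the higher genes, and P. virginalis at most 3 for 8 of the lower genes.

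The number of genes that differed was larger than the number of distinct profiles. Of the 63 gene models, 13 had exactly the counts of another model of the same length in all 9 libraries, against 21 of all 5053 tested, since RSEM divides reads evenly between models it cannot distinguish. The 63 models gave 53 distinct profiles, 40 higher and 13 lower in P. virginalis. The largest such set had 9 models of 1851 nt on 9 scaffolds. Each had 1.33, 1.88 and 3.31 TPM in P. virginalis and 0.04, 0 and 0.05 TPM in P. fallax, with a log2 fold change of 6.60 ± 0.90 (SE). Summed over the set, the TPM was 11.97, 16.92 and 29.79 in P. virginalis against 0.36, 0 and 0.45 in P. fallax. When indistinguishable models were summed before the test, an alternative chosen after seeing the data, 49 of 5046 differed, 37 higher and 12 lower, all of them among the 53 profiles.

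Other models had profiles that were alike without being the same. A profile was joined to another when their TPM, after adding 0.5, stayed within 2-fold in all 9 libraries, and 28 of the 53 had at least 1 such partner. Groups were built through shared partners, so that members of a group may differ by more than 2-fold. The largest group held 8 models on 8 scaffolds, 333 to 3525 nt long. Their median TPM was 15.6, 11.7 and 25.8 in P. virginalis animals 2, 6 and 7, against 0.96, 0.21 and 1.75 in P. fallax animals 1, 3 and 4, and their hepatopancreas medians were 51.8, 9.68 and 11.6 TPM. In TPM, all 8 were highest in animal 7 among the muscle libraries and in animal 2 among the hepatopancreas libraries, a likeness that the rule for joining favours. A second group of 6 models, 590 to 1176 nt long, had medians of 4.26, 4.93 and 13.9 TPM in P. virginalis and 0.54, 0.55 and 1.15 TPM in P. fallax, with 51.5, 25.3 and 51.2 TPM in hepatopancreas. The joining followed levels only, and whether such models are pieces of 1 transcript on a fragmented assembly was not tested.

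**Figure D4:**
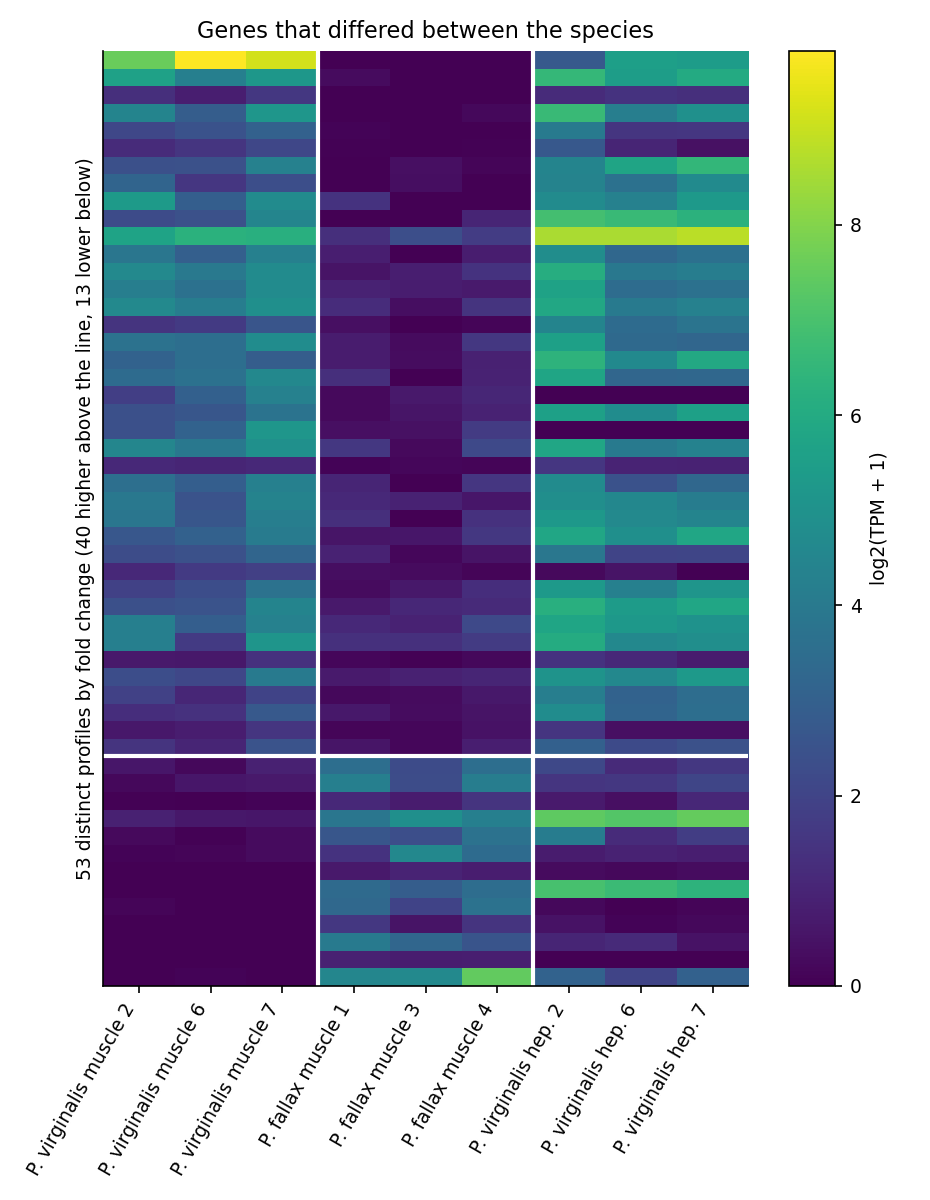
Level of the 53 distinct profiles that differed between the species, as log2(TPM + 1), in 3 P. virginalis muscle, 3 P. fallax muscle and 3 P. virginalis hepatopancreas (hep.) libraries, from the largest positive to the largest negative fold change. Above the white line are the 40 profiles that were higher in P. virginalis muscle, and below it the 13 that were lower. All share 1 colour scale, on which profiles with low TPM look dark in both species. Of the upper profiles, 29 of 40 average at least 10 TPM in hepatopancreas.

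Features of the models were counted beside those of all genes tested. The name of SNAP, an ab initio gene predictor, stood somewhere in the identifier of 38 of the 49 higher genes (77.6%), 12 of the 14 lower genes (85.7%) and 3628 of the 5053 genes tested (71.8%), shares near that of genes in general. Identifiers that begin with that name were found for 30 of the higher (61.2%), 4 of the lower (28.6%) and 1093 of the genes tested (21.6%), and by distinct profiles for 22 of 40 (55.0%), 4 of 13 (30.8%) and 1084 of 5039 (21.5%). What the 2 forms of identifier say about a model is not given in the files. The models had a median length of 943 nt for the higher, 1355 nt for the lower and 1592 nt for all genes tested. These values are descriptions. The part of model quality in the differences was not tested.

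Hepatopancreas of P. virginalis gave a context for the differing genes. A mean hepatopancreas TPM of at least 1 was found for 52 of the 63 (82.5%) and for 4388 of the 5053 genes tested (86.8%), so that detection there was no more frequent than for genes in general. The directions differed. It was reached by 45 of the 49 higher genes (91.8%) and 7 of the 14 lower genes (50%), and a mean of at least 10 TPM by 30 of 49 (61.2%) and 2 of 14 (14.3%), against 38.3% of genes tested. The median level of the higher genes was 8.27 TPM in P. virginalis muscle, 0.417 TPM in P. fallax muscle and 19.0 TPM in P. virginalis hepatopancreas. For the lower genes it was 0.0367, 8.30 and 1.54 TPM in the same order, and for all genes tested 3.10, 4.65 and 6.26 TPM. By distinct profiles, at least 10 TPM in hepatopancreas was reached by 29 of 40 higher (72.5%) and 2 of 13 lower ones (15.4%). The medians by profile, in the same order, were 9.66, 0.552 and 23.8 TPM for the higher and 0.03, 8.30 and 0.88 TPM for the lower ones.

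Gene by gene, the mean hepatopancreas level was above the muscle level of both species for 43 of the 49 higher genes (87.8%) and 2 of the 14 lower genes (14.3%), against 60.5% of genes tested. By distinct profiles these were 35 of 40 and 2 of 13. Single libraries gave another picture than the means. All 3 hepatopancreas libraries lay above all 3 P. virginalis muscle libraries for 15 of the 49 higher genes (30.6%). This held for 12 of the 14 lower genes (85.7%) and for 44.0% of genes tested. By distinct profiles it held for 15 of 40 higher (37.5%) and 11 of 13 lower ones (84.6%). A mean of at least 0.1 TPM in hepatopancreas was found for 12 of the 14 lower genes (85.7%) and for 47 of the 49 higher genes (95.9%), against 98.0% of genes tested. Because the genes were selected by their muscle levels, these comparisons with muscle are in part fixed by the selection. Of the higher genes, models of 588 and 408 nt were without a read in any hepatopancreas library. The first had 2.55, 7.04 and 18.9 TPM in P. virginalis muscle and 0.19, 0.60 and 1.10 TPM in P. fallax muscle. The other had 4.24, 7.41 and 35.2 TPM in P. virginalis and 0.34, 0.36 and 2.30 TPM in P. fallax. Hepatopancreas of P. fallax was not analysed here.

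**Figure D5:**
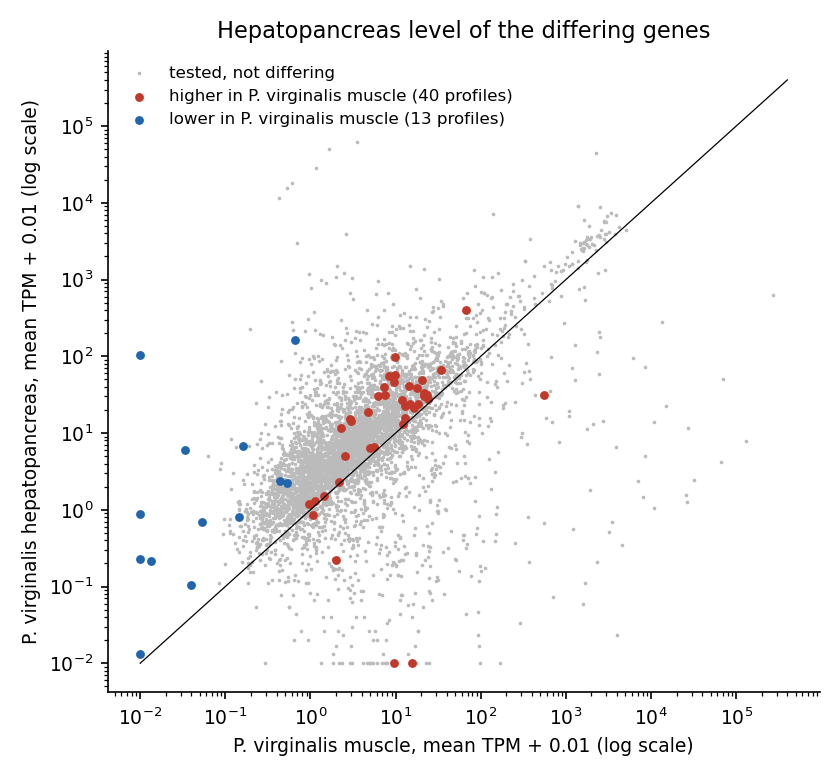
Mean TPM in P. virginalis hepatopancreas (vertical) against P. virginalis muscle (horizontal) for the genes tested, both on a log scale after adding 0.01, with the line of equal level. Of the 40 profiles higher in P. virginalis muscle (red) 35 lie above the line, 2 lie at 0 in hepatopancreas, and the 13 lower profiles (blue) lie above the line at low muscle levels.

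The level of hepatopancreas transcripts in the muscle libraries was measured with a list. It held 132 genes with at least 100 TPM in each hepatopancreas library, and a median over the muscle libraries of at most 1% of the mean there, which summed to between 357999 and 571656 TPM in hepatopancreas. In muscle they summed to 78.6, 67.2 and 77.9 TPM in P. virginalis animals 2, 6 and 7, against 231, 1897 and 174 TPM in P. fallax animals 1, 3 and 4. Mean values were 74.6 ± 6.41 TPM in P. virginalis and 767 ± 978 TPM in P. fallax (SD, n = 3 each, exact permutation p = 0.1, the smallest possible). P. fallax animal 3 stood apart. Without it the difference in means was -128 TPM, against -693 TPM with it. At 0 counts were 30, 34 and 79 of the 132 genes in P. virginalis and 70, 7 and 55 in P. fallax. The sum was thus lower in each P. virginalis muscle library than in any P. fallax muscle library. Of the 132 genes 25 were tested and none passed, with 7 (28%) at an unadjusted p under 0.05 in edgeR, against 7.50% of all genes tested. DESeq2 called 2 (8%, against 2.20%) and edgeR with library sizes alone 6 (24.0%, against 1.42%). Without the filter on low counts 130 were tested and 55 passed (42.3%, against 2.49% of all genes in that fit). None of the 63 genes was on the list, but its limit on the median over both species' muscle tends to shut out genes high in 1 species. Their absence from the list therefore says nothing about such transcripts. The part of such transcripts in the differences was not tested.

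Read length differed between the species, and only P. virginalis animal 7 could be compared within PE125. In that fit of 1 library against 3, in which animal 7 is assumed to vary like P. fallax, none of 6275 genes passed edgeR's test and 251 had an unadjusted p under 0.05. All 63 genes kept their direction and had an unadjusted p under 0.05 in it, with a median log2 fold change of 4.79 for the higher and -6.53 for the lower genes. These libraries are part of the full comparison and give no independent support. In TMM-scaled CPM all 49 higher and all 14 lower genes were without overlap between the species, against 607 of all genes tested (12.0%). The place of animal 7 above or below all P. fallax animals follows from this and adds nothing to it. Among P. virginalis animals, animal 7 was the highest in TPM for 42 of the 49 higher genes, but in TMM-scaled CPM for 8 of them.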

How the data were processed

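The authors aligned and quantified paired-end TruSeq libraries of total RNA. HISAT2 2.0.4 and RSEM 1.2.30 are named in the submitters' processing notes, and neither the genome build nor the annotation release is given in the sources. The expected counts deposited are RSEM's estimates per gene model, not normalized, and were rounded to whole numbers here for count models. The TPM values deposited by the authors divide these by effective length and scale each library to 1 total. FPKM was not used. Replicates were not pooled, and samples were grouped by the titles.

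Genes were kept by filterByExpr (minimum count 10) and tested with edgeR 4.0.16 in R 4.3.3 (TMM factors, quasi-likelihood test, Benjamini-Hochberg adjustment, threshold 0.05), fitting the 6 muscle libraries alone. The TMM factors were between 0.450 and 1.35 in P. virginalis and between 0.837 and 2.02 in P. fallax. Intervals came from limma 3.58.1 (voom), and values per library were tested by exact permutation over the 10 divisions of the libraries. A gene at 0 in a species was given a floor of 3 counts over the group, and single ratios an exact 95% counting interval. Other steps used SciPy 1.17.1, pandas 2.3.3 and NumPy 2.4.6 under Python 3.11.15. The scripts were tested on simulated counts, in which 200 genes with a mean log2 CPM over 2 were changed. The edgeR test recovered 11% of changes of 2 and 63% of changes of 3 on the log2 scale. Of its calls 6.33% were false. Smaller differences would thus mostly be missed.

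Genes named are, among those with an adjusted p under 0.05, at least 10 TPM in 1 species and no overlap of TPM, the 2 with the largest and the 2 with the smallest log2 fold change. Others are described by rank without identifier. The genes of 753, 935, 726, 588 and 408 nt were singled out after their values were seen. The comparison, the lists and the tests were chosen with earlier results of these data known. Alternatives were DESeq2 1.42.0, RLE factors, library sizes alone, no filter, limma on log2(TPM + 1) and log2(TPM + 0.1), edgeR's glmTreat with a limit of 1 on the log2 scale, all 9 libraries in one model, the 10 most abundant genes left out, PE125 libraries alone, other level limits, and leaving out each animal. Summing indistinguishable models was added after seeing the data.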

Additional observations from a re-analysis of the deposited data

How the results depend on the processing

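The count of 63 genes became 111 with DESeq2, 307 of 12353 genes without the filter on low counts (155 higher and 152 lower in P. virginalis), and 0 with PE125 libraries alone. It ranged from 35 (without P. fallax animal 4) to 85 (without P. fallax animal 1) with 1 animal left out, and was 40 without P. virginalis animal 6 and 39 without animal 7. In those fits between 33 and 53 of the 63 genes passed again. In the other alternatives it was between 49 and 82. The count of 11 genes from 10 TPM became 23 with DESeq2, 21 with limma on log2(TPM + 1) and 4 when levels were taken as medians over the libraries, and ranged from 8 to 19 with 1 animal left out (19 without P. fallax animal 1). It was 25 with library sizes alone, 52 without the filter and 10 with indistinguishable models summed.

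The ratio of the median difference between species to that within species ranged from 0.893 to 1.17 with 1 animal left out and reversed without P. virginalis animal 2 (0.997), P. virginalis animal 6 (0.893) or P. fallax animal 4 (0.904). The difference in rank correlation stayed negative in the 9 alternatives tried, from -0.0162 to -0.0913. The 94 genes shared among the top 100 compare with 42 among the top 50 and 433 among the top 500. The share bounded within 2-fold, 0.0792%, became 58.2% for a limit of 4-fold. The 52 differing genes with at least 1 TPM in hepatopancreas became 32 at a minimum of 10 TPM. The cause of these changes was not tested. Of the genes named, each kept its sign, but none had an adjusted p under 0.05 in PE125 libraries alone.

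No paired analysis was possible because the species share no replicate numbers. With 3 animals of each species no exact permutation p can fall below 0.1, and the p-values measure the spread between these animals only. A missing call at this depth does not show equal expression.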
